A study of Mus musculus with 9 samples.

Results

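Cardiomyocytes positive for cardiac troponin T (cTnT+) were set against the progenitors from which they had been grown, cells carrying both receptors Flk1 and Pdgfra (Flk1+Pdgfra+). The parent of all cells was E14.1, a line of mouse embryonic stem cells (129/Ola). The cTnT+ group held 3 arrays of cells obtained by further culture of the Flk1+Pdgfra+ fraction, and the labels used here do not say whether these cells were sorted for troponin. The Flk1+Pdgfra+ group held 3 arrays of cells sorted for both receptors. A Flk1+ group of 3 arrays, sorted for Flk1 without Pdgfra, is given as context, so that 6 of the 9 arrays of the series were compared directly. The labels used here give no transgene, drug, medium or day of culture for any group. Nor do they state that replicate arrays stem from independent cultures, so p-values here measure array-to-array spread, part of which may be technical. RNA was hybridised to Affymetrix Mouse Exon 1.0 ST arrays, and each value below is a level on the log2 scale after RMA, so that a difference of 1 is a 2-fold change.

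Flk1, encoded by Kdr, is the VEGF receptor of the first blood and vessel precursors, and Pdgfra marks the mesoderm that can form heart muscle. Such cells have recently passed through the primitive streak, where Eomes and Mesp1 open the cardiac programme, and they divide fast. As they become cardiomyocytes they switch on the factors Gata4, Tbx5, Mef2c and Nkx2-5, assemble sarcomeres from thick myosin and thin actin filaments anchored at Z-discs, and couple the membrane potential to contraction through calcium released from the sarcoplasmic reticulum. The fetal heart burns glucose and lactate and moves to fatty acids after birth, while its cells gradually leave the cell cycle.

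Correlations between arrays, over the 14860 genes tested, lay between 0.983 and 0.987 among cTnT+ arrays, between 0.987 and 0.997 among Flk1+Pdgfra+ arrays, and between 0.920 and 0.928 across these groups. The array called Flk1+Pdgfra+ replicate 3 stood apart from the other 2 of its group, with more RNA of early epiblast and streak genes and less of endothelial genes. Results that moved by more than 1.5 times without any single array are given with that array named. Of the 14860 genes, 3348 were higher and 2778 were lower in cTnT+ than in Flk1+Pdgfra+ cells at an adjusted p under 0.05, which is 22.5% and 18.7% of all genes and 41.2% together. These shares are the background for every count below, and "rose" and "fell" are used only of genes past that threshold. At an unadjusted p under 0.05, 7149 genes differed. Each list count of 0 below was also 0 at that looser level in the same limma fit, unless another count stands beside it. With a change of at least 2-fold as well, 1604 genes (10.8%) were higher and 715 (4.81%) were lower. The split depends on how the arrays are scaled: 3348 higher and 2778 lower became 2737 and 3187 after centring each array on the median of all its transcript clusters, 1994 and 5406 after centring on the genes with a single symbol, and 2752 and 3914 after quantile normalisation. These scalings moved the median of all genes by -0.11, -0.33 and -0.094. An exact permutation test of 3 arrays against 3 cannot go below 0.1, so every call rests on the limma model. That model joins each gene's own spread within the 3 groups (6 residual degrees of freedom) with a spread shared across genes (2.2 degrees of freedom). The Flk1+ arrays thus enter each p-value, although they lie outside the comparison. Among them replicate 3 stood apart, and correlations between Flk1+ arrays lay between 0.973 and 0.996. When arrays were weighted, its weight was 0.251, below the 0.494 of Flk1+Pdgfra+ replicate 3. The pluripotency gene Pou5f1 was at 10.73 on Flk1+ replicate 3, against 6.69 and 7.41 on the others. Its standard deviation was 0.17 in cTnT+ and 0.40 in Flk1+Pdgfra+ cells but 2.16 in Flk1+ cells, and its SE was 0.89. Without Flk1+ replicate 3 the counts were 3603 higher and 3004 lower.

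The given markers Tnnt2, Actn2, Gata5 and Mixl1 separated the groups, and only Tnnt2 among them answers to a group label. Actn2, Gata5 and Mixl1 are also among the largest changes of these same data. Tnnt2, the cardiac troponin T that gives the cTnT+ cells their name, stood at 12.59, 12.40 and 11.85 on the cTnT+ arrays, against 7.09, 7.34 and 6.61 on the Flk1+Pdgfra+ arrays. The groups did not overlap, and Tnnt2 was 38.4-fold higher in cTnT+ (difference 5.26, SE 0.31, adjusted p = 1.30e-05). Actn2, the actin cross-linker of Z-discs, stood at 12.74, 12.17 and 11.49 on the cTnT+ arrays, against 6.54, 6.66 and 6.67 on the Flk1+Pdgfra+ arrays, and was 45.5-fold higher in cTnT+ (difference 5.51, SE 0.28, adjusted p = 7.96e-06). Gata5, a zinc finger factor of the developing heart, was at 11.87, 12.32 and 11.86 in cTnT+ cells, against 6.25, 6.42 and 6.19 in Flk1+Pdgfra+ cells, and was 53.1-fold higher in cTnT+ (difference 5.73, SE 0.16, adjusted p = 1.04e-06). Mixl1, a homeobox gene switched on in the streak, showed the opposite order. It was at 6.14, 6.38 and 6.40 in cTnT+ cells, against 13.60, 13.61 and 13.69 in Flk1+Pdgfra+ cells, and was 160.2-fold lower in cTnT+ (difference -7.32, SE 0.29, adjusted p = 4.54e-06), the largest fall of any gene tested. The Flk1+ arrays held Mixl1 at 11.34, 11.72 and 12.65 and Tnnt2 at 8.54, 8.77 and 7.77.

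Of the receptors used for the sort, Kdr fell and Pdgfra did not pass the test. Kdr stood at 10.59, 11.41 and 10.51 on the cTnT+ arrays, against 12.10, 12.14 and 11.69 on the Flk1+Pdgfra+ arrays, and was 2.20-fold lower in cTnT+ (difference -1.14, SE 0.24, adjusted p = 0.00575). Every cTnT+ array lay below every Flk1+Pdgfra+ array, yet the lowest cTnT+ level was still far above the lower quartile of all transcript clusters, which lay between 5.60 and 5.69 on the 9 arrays and is used below as the limit of dim signal. Pdgfra stood at 11.42, 10.95 and 11.56 in cTnT+ cells, against 11.14, 11.07 and 11.84 in Flk1+Pdgfra+ cells. These values overlapped, with a difference of -0.04 (95% confidence interval -0.67 to 0.59, adjusted p = 0.925), and the sign turned to 0.20 without Flk1+Pdgfra+ replicate 3 and to 0.14 without cTnT+ replicate 2. In bulk RNA such as this, fewer cells of a type and less RNA per cell cannot be told apart.

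**Figure D1:**
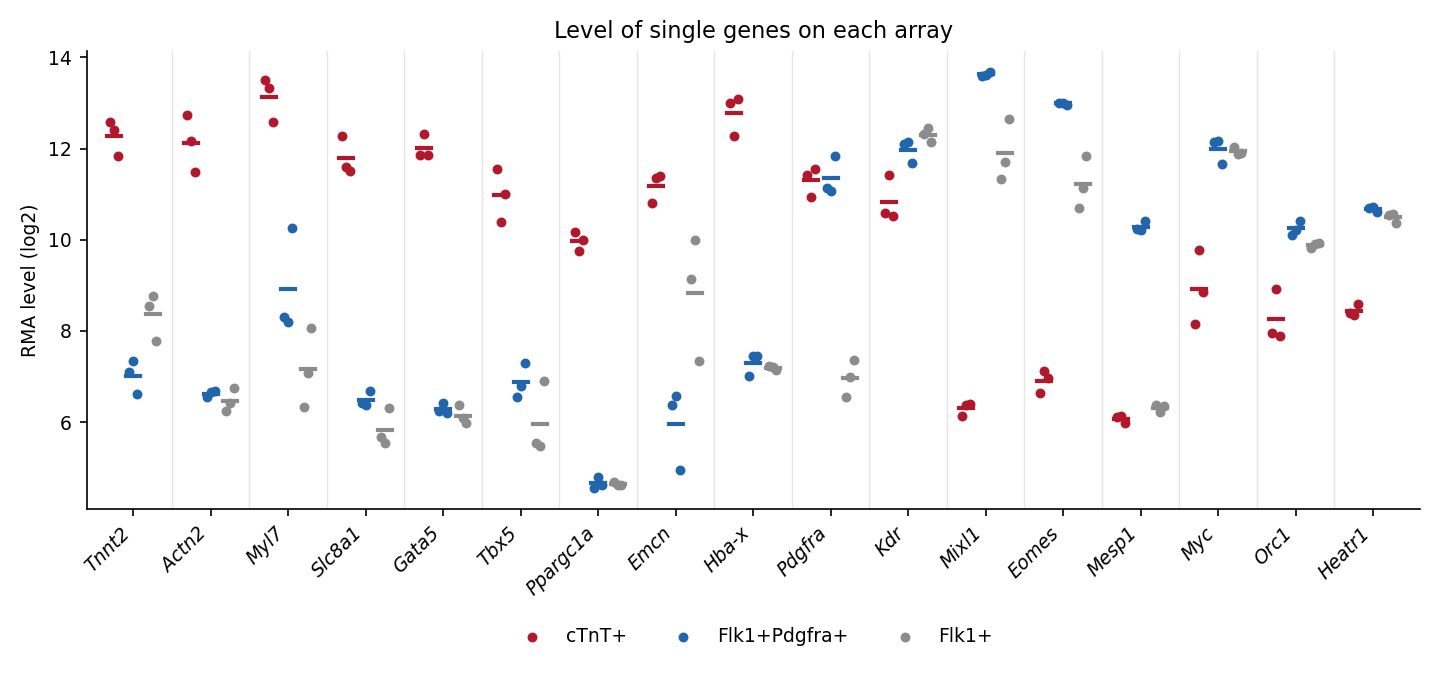
RMA level on the log2 scale (y axis) of 17 genes on each array, with cTnT+, Flk1+Pdgfra+ and Flk1+ arrays drawn as separate points from left to right and a line at each group mean. Contractile and cardiac genes sit highest in cTnT+, Emcn sits high in cTnT+ and Flk1+, Mixl1, Eomes and Mesp1 sit lowest in cTnT+, and Pdgfra overlaps between cTnT+ and Flk1+Pdgfra+.

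Among the 12 largest rises, several belong to muscle. Smyd1, a methyltransferase needed for sarcomere assembly, stood at 12.26, 11.97 and 10.79 in cTnT+ cells, against 5.73, 5.85 and 5.96 in Flk1+Pdgfra+ cells, and was 56.8-fold higher in cTnT+ (difference 5.83, SE 0.34, adjusted p = 1.27e-05). Tnni1, the slow troponin I used by the embryonic heart, was at 12.51, 12.18 and 11.86 in cTnT+ cells, against 6.76, 6.86 and 6.86 in Flk1+Pdgfra+ cells, and was 40.9-fold higher in cTnT+ (difference 5.36, SE 0.19, adjusted p = 2.93e-06). Ankrd1, a titin-binding protein that responds to stretch, was higher in cTnT+ (difference 6.01, SE 0.39, adjusted p = 1.84e-05), and Tecrl, an endoplasmic reticulum protein linked in humans to inherited arrhythmia, was higher in cTnT+ (difference 6.28, SE 0.38, adjusted p = 1.57e-05). For Ankrd1, Tecrl and other genes whose Flk1+Pdgfra+ mean lay below the array's lower quartile, no fold is given, because a value that low has no exact size. Plppr5, with the largest rise of all (6.33), and Ppargc1a (5.33) were of that kind too. The list also held secreted proteins. Edil3, a matrix protein that binds integrins, was 50.9-fold higher in cTnT+ (difference 5.67, SE 0.33, adjusted p = 1.28e-05), and Igfbp5, which binds insulin-like growth factors, was 45.9-fold higher in cTnT+ (difference 5.52, SE 0.54, adjusted p = 1.19e-04). Embryonic globins completed it. Hba-x stood at 13.01, 12.27 and 13.09 in cTnT+ cells, against 7.02, 7.44 and 7.44 in Flk1+Pdgfra+ cells, and was 44.8-fold higher in cTnT+ (difference 5.49, SE 0.22, adjusted p = 4.68e-06). Hbb-y differed by 5.95, or by 6.65 without cTnT+ replicate 2.

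Contractile genes rose together. Of the thick filament list, 7 of 10 measured members rose and 0 fell, with a median difference of 1.74 beside a median of 0.0043 over all genes. Of the thin filament list, 11 of 17 rose and 0 fell, with a median of 1.03. Of the Z-disc, titin and M-band list, 19 of 25 rose and 2 fell, with a median of 1.90. The 2 fallers were Pdlim3 and Cavin4, and their number was 0 without Flk1+Pdgfra+ replicate 1 and 1 without Flk1+Pdgfra+ replicate 2, Flk1+ replicate 2, cTnT+ replicate 1 or cTnT+ replicate 3. The cardiac heavy chains Myh6 and Myh7 could not be described, since they share a transcript cluster, nor could the light chain Myl4, whose cluster carries other symbols too. The light chain Myl7, which is atrial in the adult heart and runs through the whole early heart tube, stood at 13.50, 13.33 and 12.59 in cTnT+ cells, against 8.30, 8.19 and 10.25 in Flk1+Pdgfra+ cells. It was 18.8-fold higher in cTnT+ (difference 4.23, SE 0.62, adjusted p = 8.59e-04), with a difference of 4.90 without Flk1+Pdgfra+ replicate 3, the Flk1+Pdgfra+ value of replicate 3 being the highest of its group. Mybpc3, the cardiac myosin-binding protein C, was at 11.38, 9.97 and 9.91 in cTnT+ cells, against 6.53, 6.57 and 6.58 in Flk1+Pdgfra+ cells, and was 14.5-fold higher in cTnT+ (difference 3.86, SE 0.35, adjusted p = 8.20e-05). The ventricular light chain Myl2 was higher in cTnT+ (difference 5.07, SE 0.42, adjusted p = 5.35e-05). Its cTnT+ values were 9.89, 8.06 and 8.43, against 3.39, 3.89 and 3.87 in Flk1+Pdgfra+ cells. Tnnc1, the calcium-binding troponin of heart and slow muscle, was 25.6-fold higher in cTnT+ (difference 4.68, SE 0.31, adjusted p = 2.18e-05), and Des, the desmin filament that links Z-discs, was 22.6-fold higher in cTnT+ (difference 4.50, SE 0.26, adjusted p = 1.25e-05). The skeletal actin Acta1, also used by the fetal heart, was 4.48-fold higher in cTnT+ (difference 2.16, SE 0.50, adjusted p = 0.00893), the difference being 1.46 without cTnT+ replicate 1. Myl7, Mybpc3 and Myl2 were highest on cTnT+ replicate 1, and the median level of the Z-disc list was 10.30, 9.77 and 9.43 on the 3 cTnT+ arrays, against 6.24, 6.55 and 6.67 on the Flk1+Pdgfra+ arrays.

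The start regions of contractile genes are printed here because they hold motifs long tied to muscle transcription more often than other genes do. A CArG box, bound by SRF, was found on either strand in 9 of 56 start windows of the contractile genes (16.1%), against 198 of 14927 windows of all genes (1.33%). A MEF2 site was found in 3 of 56 contractile windows (5.36%) and in 0.476% of all windows. An M-CAT motif (CATTCC) was found in 30.4% and 13.1%. A GATA motif (the letters GATA with A or T before and A or G after them) was found in 39.3% and 23.6%. The lists differed: M-CAT stood in 50% of thick filament, 40% of thin filament and 12.5% of Z-disc windows. GATA stood in 50%, 20% and 50% of them. Each window runs from 250 bases before a RefSeq gene start to 50 bases after it in GRCm38.p6, and 11894 of the 14860 genes had one. The Myl7 window lies at chr11:5898733-5899032 on the minus strand, with the CArG box 61 bases and a CCAAT box 79 bases before the start. The Acta1 window lies at chr8:123894726-123895025 on the minus strand, with a CArG box 73 bases before the start. The Mybpc3 window lies at chr2:91117894-91118193 on the plus strand, with a MEF2 site 90 bases before the start. Capitals mark the CArG, MEF2 and CCAAT motifs, while M-CAT and GATA motifs were not marked and stand in lower case with the rest. The windows read 5′ to 3′ along the gene, and a motif on the other strand appears as its reverse complement.
Myl7: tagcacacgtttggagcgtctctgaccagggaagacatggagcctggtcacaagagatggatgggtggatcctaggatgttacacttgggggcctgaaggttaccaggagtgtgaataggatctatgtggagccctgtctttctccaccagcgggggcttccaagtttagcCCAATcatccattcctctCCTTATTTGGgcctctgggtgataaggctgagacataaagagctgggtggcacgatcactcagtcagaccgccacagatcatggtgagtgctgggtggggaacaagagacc
Acta1: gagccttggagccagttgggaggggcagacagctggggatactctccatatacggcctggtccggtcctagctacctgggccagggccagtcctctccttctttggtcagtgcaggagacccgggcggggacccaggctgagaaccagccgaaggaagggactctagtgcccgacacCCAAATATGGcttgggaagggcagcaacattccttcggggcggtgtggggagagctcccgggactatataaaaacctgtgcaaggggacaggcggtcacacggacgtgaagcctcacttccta
Mybpc3: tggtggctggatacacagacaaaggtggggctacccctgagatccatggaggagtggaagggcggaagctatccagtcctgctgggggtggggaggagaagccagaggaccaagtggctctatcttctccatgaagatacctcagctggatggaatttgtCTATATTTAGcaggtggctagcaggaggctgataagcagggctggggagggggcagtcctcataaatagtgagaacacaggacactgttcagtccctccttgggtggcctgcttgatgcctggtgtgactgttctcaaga
Across all genes, 24.3% of the 185 genes that hold a CArG box rose, against 22.5% of the 11709 genes that do not. Of the 42 contractile genes with a window, 7 hold a CArG box (Acta1, Fhl1, Fhl2, Ldb3, Myl7, Myom1 and Nebl) and 6 of these rose, while 26 of the 35 without it rose. Such a match shows only that these letters stand in the window.

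Calcium handling genes rose with those of the sarcomere. In the sarcoplasmic reticulum and calcium entry list, 18 of 30 members rose and 0 fell, with a median difference of 1.66. The count of fallers was 1 without Flk1+Pdgfra+ replicate 3. The sodium-calcium exchanger Slc8a1 stood at 12.28, 11.59 and 11.51 in cTnT+ cells, against 6.43, 6.38 and 6.67 in Flk1+Pdgfra+ cells, and was 39.3-fold higher in cTnT+ (difference 5.30, SE 0.25, adjusted p = 6.39e-06). Pln, the phospholamban that restrains the calcium pump, was higher in cTnT+ (difference 3.70, SE 0.32, adjusted p = 6.41e-05). Casq1, the calsequestrin best known from skeletal muscle, was higher in cTnT+ (difference 4.30, SE 0.29, adjusted p = 2.34e-05), with 10.59, 9.63 and 9.26 in cTnT+ cells, against 5.47, 5.66 and 5.46 in Flk1+Pdgfra+ cells. The cardiac paralog Casq2 was not past the threshold, with means of 5.36 in cTnT+ cells and 5.64 in Flk1+Pdgfra+ cells (difference -0.28, adjusted p = 0.150), both near or below the dim limit. The pump Atp2a2 was bright in every group, with means of 12.38 in cTnT+ and 12.05 in Flk1+Pdgfra+ cells, and its difference of 0.33 missed the threshold (adjusted p = 0.219). The release channel Ryr2 differed by 4.29 (adjusted p = 1.52e-04), or by 3.68 without cTnT+ replicate 1. The calcium buffer Hrc differed by 4.08, and the channels Cacna1h and Cacna1c, of T and L type, differed by 3.54 and 2.05. Casq2, Atp2a2, Ryr2, Hrc, Cacna1h and Cacna1c were picked after their values were seen.

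Potassium, sodium and pacemaker channels changed singly. Of 83 measured members, 17 rose and 11 fell, with a median of 0.03, shares of 20.5% and 13.3% beside 22.5% and 18.7% over all genes. The fallers numbered 6 without Flk1+Pdgfra+ replicate 2 or cTnT+ replicate 2 and 7 without Flk1+Pdgfra+ replicate 1, Flk1+Pdgfra+ replicate 3, Flk1+ replicate 2 or cTnT+ replicate 1. Under the 3 scalings the counts were 15 higher and 10 lower, 12 higher and 21 lower and 15 higher and 16 lower. Members with a large change were single channels: Kcnh2, which repolarises the ventricle, was 10.9-fold higher in cTnT+ (difference 3.45, SE 0.20, adjusted p = 1.27e-05), and Kcnj5, a subunit of the acetylcholine-gated atrial current, was 7.29-fold higher in cTnT+ (difference 2.87, SE 0.42, adjusted p = 8.43e-04). Its partner Kcnj3 had the opposite sign, at 7.07, 6.33 and 6.95 in cTnT+ cells, against 9.15, 8.97 and 9.44 in Flk1+Pdgfra+ cells, and was 5.27-fold lower in cTnT+ (difference -2.40, SE 0.82, adjusted p = 0.0455). The Kcnj3 call was lost without Flk1+Pdgfra+ replicate 1 (adjusted p = 0.101), without Flk1+Pdgfra+ replicate 2 (adjusted p = 0.0901), without Flk1+Pdgfra+ replicate 3 (adjusted p = 0.111), without Flk1+ replicate 2 (adjusted p = 0.0501), without cTnT+ replicate 1 (adjusted p = 0.0815), without cTnT+ replicate 2 (adjusted p = 0.125) or without cTnT+ replicate 3 (adjusted p = 0.0864). The intercalated disc and costamere, where cardiomyocytes are joined end to end and to the matrix, had 20 of 28 members higher and 3 lower, with a median of 0.87. Popdc2, a cyclic AMP-binding membrane protein, stood at 12.25, 10.98 and 10.58 in cTnT+ cells, against 6.57, 6.54 and 6.44 in Flk1+Pdgfra+ cells, and was 27.0-fold higher in cTnT+ (difference 4.75, SE 0.36, adjusted p = 3.42e-05). Ctnna3, the alpha-catenin of heart and testis, was higher in cTnT+ (difference 3.90, SE 0.28, adjusted p = 2.72e-05). Connexins, the gap junction channels, had 1 of 13 members higher and 2 lower, and the 3 scalings gave 0 higher and 2 lower, 0 higher and 5 lower and 0 higher and 3 lower. The single riser, Gja6, and the 2 fallers, Gja1 and Gjb2, each lost the call without at least 1 of several arrays, the number of risers being 0 without Flk1+Pdgfra+ replicate 2, Flk1+Pdgfra+ replicate 3, cTnT+ replicate 1 or cTnT+ replicate 3 and 2 without Flk1+ replicate 3 and that of fallers 1 without Flk1+Pdgfra+ replicate 1, Flk1+Pdgfra+ replicate 2, Flk1+Pdgfra+ replicate 3, cTnT+ replicate 1 or cTnT+ replicate 2. Gja1, connexin 43, the main ventricular connexin after birth, stood at 11.11, 11.43 and 11.66 in cTnT+ cells, against 12.35, 12.23 and 12.84 in Flk1+Pdgfra+ cells. It was 2.11-fold lower in cTnT+ (difference -1.07, SE 0.29, adjusted p = 0.0174), and the call was lost without Flk1+Pdgfra+ replicate 3 (adjusted p = 0.0590) or without cTnT+ replicate 1 (adjusted p = 0.0607).

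Cardiac transcription factors rose as well, though not all of them. Of 35 measured members, 20 rose and 1 fell, with a median of 1.34. The largest riser was Ankrd1 (difference 6.01), which is also counted in the Z-disc list. The single faller was Tbx3, and the fallers numbered 2 without Flk1+Pdgfra+ replicate 3 or cTnT+ replicate 1. Mef2c stood at 12.23, 12.45 and 11.53 in cTnT+ cells, against 7.11, 7.27 and 7.32 in Flk1+Pdgfra+ cells, and was 28.6-fold higher in cTnT+ (difference 4.84, SE 0.27, adjusted p = 1.15e-05). Tbx5, a T-box factor of the first heart field and atria, was at 11.55, 10.39 and 11.00 in cTnT+ cells, against 6.56, 6.80 and 7.29 in Flk1+Pdgfra+ cells, and was 17.1-fold higher in cTnT+ (difference 4.10, SE 0.43, adjusted p = 1.67e-04). Smarcd3, the cardiac subunit of a SWI/SNF remodelling complex, was 4.57-fold higher in cTnT+ (difference 2.19, SE 0.26, adjusted p = 3.00e-04). Tbx3, a repressor used in the conduction system and also in pluripotent cells, stood at 8.23, 9.38 and 7.97 in cTnT+ cells, against 11.98, 11.95 and 10.99 in Flk1+Pdgfra+ cells, and was 8.63-fold lower in cTnT+ (difference -3.11, SE 0.40, adjusted p = 4.55e-04). Gata4 was already bright in the progenitors. Its means were 11.77 in cTnT+ and 11.73 in Flk1+Pdgfra+ cells, a difference of 0.05 (adjusted p = 0.906), while Gata6 differed by 0.56, Hand2 by 1.92, Nkx2-5 by 1.93 and Myocd, the SRF partner myocardin, by 3.84. These 5 factors were picked after their values were seen.

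Most members of the list of natriuretic peptides and chamber genes rose. Of 23 measured members, with atrial and ventricular genes counted together, 16 rose and 2 fell, with a median of 2.38. Ventricular Myl2 and atrial Myl7 were both among the risers, at differences of 5.07 and 4.23, the second being 4.90 without Flk1+Pdgfra+ replicate 3. Bmp10, a ligand of the embryonic trabeculae, was higher in cTnT+ (difference 3.07, SE 0.30, adjusted p = 1.15e-04). The ventricular factor Irx4 differed by 3.03, the atrial and venous factor Nr2f2 by 2.42 and the natriuretic peptide Nppa by 2.63, all 3 picked after their values were seen. The 2 fallers were Kcnj3 and Gja1, whose values and array losses stand above, and their number was 0 without Flk1+Pdgfra+ replicate 3 or cTnT+ replicate 1 and 1 without Flk1+Pdgfra+ replicate 1, Flk1+Pdgfra+ replicate 2, Flk1+ replicate 2, cTnT+ replicate 2 or cTnT+ replicate 3.

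**Figure D2:**
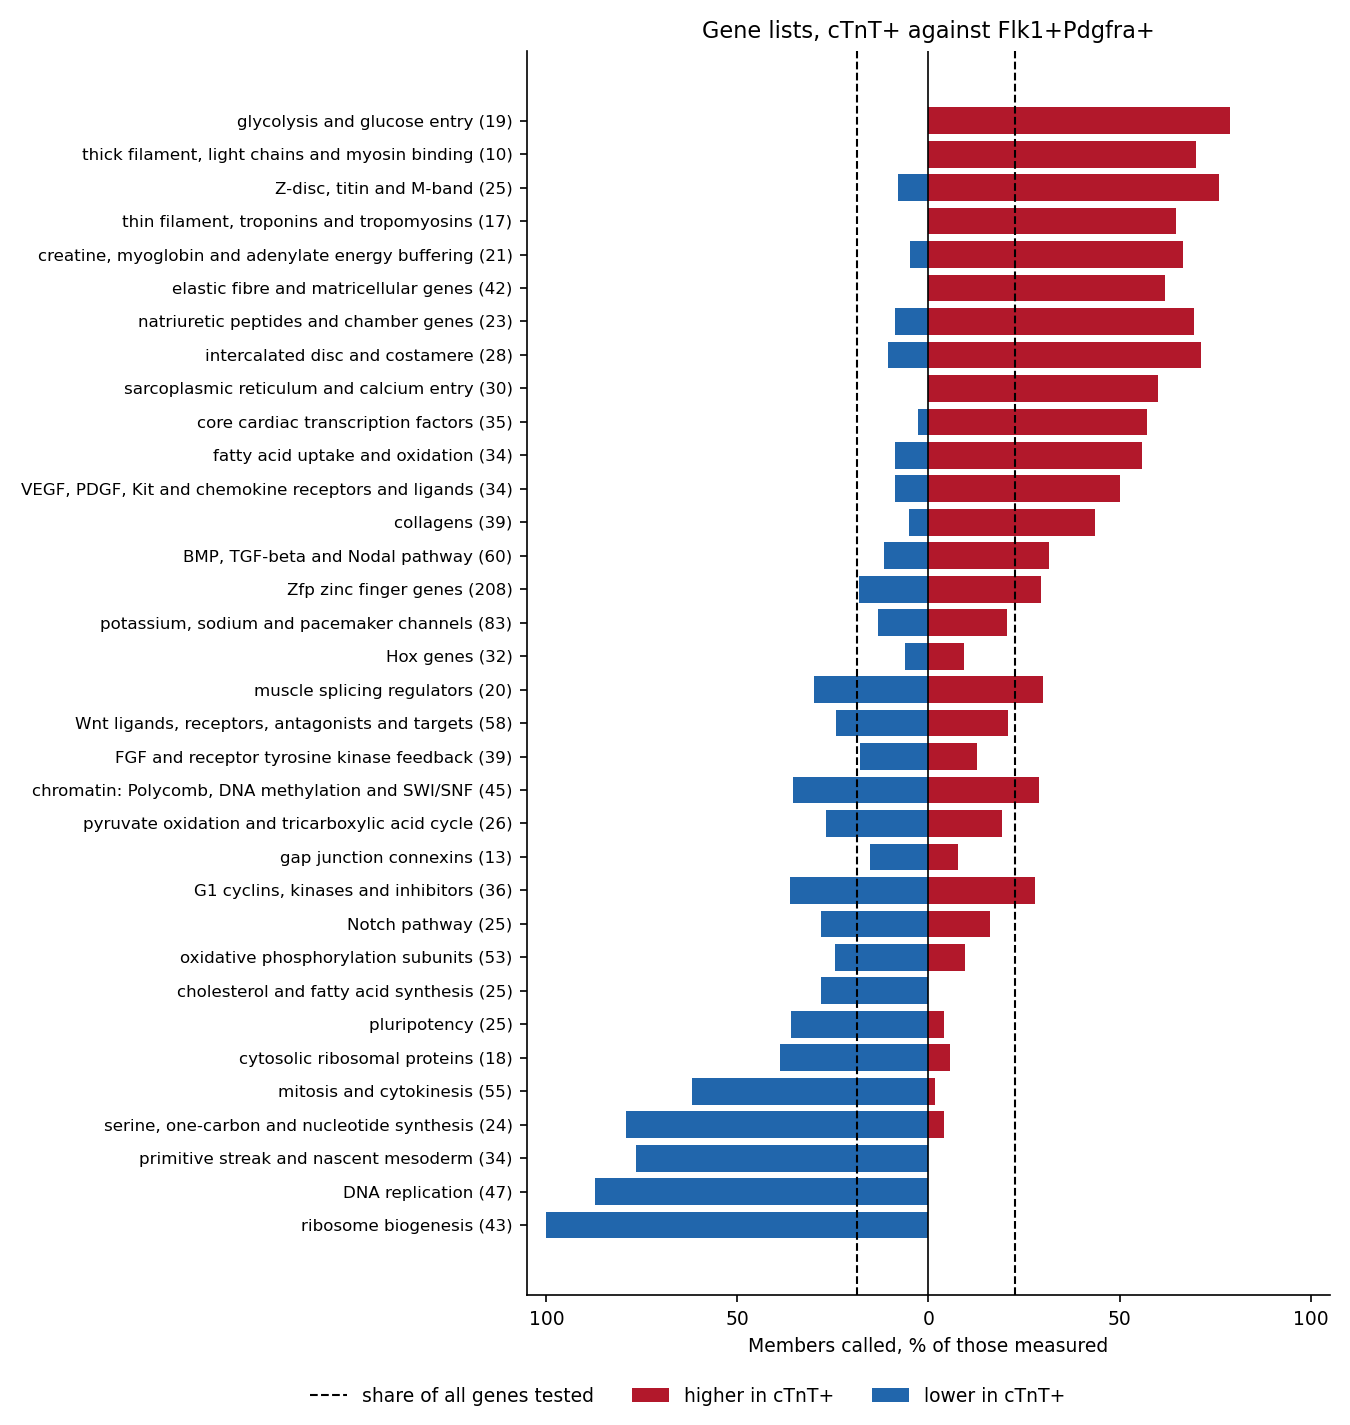
Percent of the measured members of 34 gene lists called higher (right) or lower (left) in cTnT+ than in Flk1+Pdgfra+ cells, sorted by the difference of these shares, with the number measured in brackets and dashed lines at the shares over all genes (22.5% and 18.7%). Chamber, glycolytic, contractile and disc lists lie at the higher end, and ribosome biogenesis, DNA replication, streak and nucleotide synthesis lists lie at the lower end.

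Primitive streak genes fell. Of 34 measured members, 26 fell and 0 rose, with a median difference of -1.82. Eomes, the T-box factor that opens the cardiac mesoderm programme, stood at 6.63, 7.11 and 6.97 in cTnT+ cells, against 13.01, 13.00 and 12.96 in Flk1+Pdgfra+ cells, and was 68.0-fold lower in cTnT+ (difference -6.09, SE 0.26, adjusted p = 4.97e-06). Mesp1, the factor that marks the first cardiac mesoderm, was at 6.11, 6.13 and 5.98 in cTnT+ cells, against 10.24, 10.21 and 10.41 in Flk1+Pdgfra+ cells, and was 18.5-fold lower in cTnT+ (difference -4.21, SE 0.09, adjusted p = 2.79e-07). The Flk1+ arrays held Mesp1 at 6.39, 6.21 and 6.36 and Eomes at 10.69, 11.13 and 11.83. Cyp26a1, which breaks down retinoic acid, was 58.7-fold lower in cTnT+ (difference -5.87, SE 0.20, adjusted p = 2.93e-06), and the homeobox factor Lhx1 was 47.0-fold lower in cTnT+ (difference -5.55, SE 0.78, adjusted p = 6.96e-04). The ligand Wnt3 was 21.8-fold lower in cTnT+ (difference -4.45, SE 0.22, adjusted p = 7.62e-06), and the head factor Otx2 was 20.9-fold lower in cTnT+ (difference -4.38, SE 0.81, adjusted p = 0.00283). Fgf5, a gene of the early epiblast, differed by -4.62, or by -3.71 without Flk1+Pdgfra+ replicate 3. The 12 largest falls also held the zinc finger factor Zic2 (-4.21), the homeobox factor Six2 (-4.18) and the adhesion molecule L1cam (-4.16), which are in none of the lists. Etv2, the ETS factor that starts the blood and vessel lineages, differed by -4.04 (adjusted p = 1.50e-04) and was picked after its values were seen.

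Pluripotency genes fell in part. Of 25 measured members, 9 fell and 1 rose, with a median of -0.63. The fallers numbered 14 without Flk1+ replicate 3, and the risers 2 without Flk1+ replicate 3. Pou5f1, the Oct4 factor of pluripotent cells, stood at 6.08, 6.29 and 6.42 in cTnT+ cells, against 10.47, 10.60 and 11.22 in Flk1+Pdgfra+ cells, and was 22.6-fold lower in cTnT+ (difference -4.50, SE 0.89, adjusted p = 0.00398). Its level in Flk1+Pdgfra+ cells was thus bright in every array, and in Flk1+ cells it was 6.69, 7.41 and 10.73. Dnmt3b, the embryonic DNA methyltransferase, was 5.92-fold lower in cTnT+ (difference -2.57, SE 0.13, adjusted p = 8.02e-06), while its sister Dnmt3a was 2.18-fold higher in cTnT+ (difference 1.12, SE 0.08, adjusted p = 3.46e-05). Nanog was at 6.91, 6.55 and 7.09 in cTnT+ cells, against 10.56, 10.56 and 11.33 in Flk1+Pdgfra+ cells, and was 15.7-fold lower in cTnT+ (difference -3.97, SE 1.11, adjusted p = 0.0201). The Nanog call was lost without Flk1+Pdgfra+ replicate 3 (adjusted p = 0.0604), without cTnT+ replicate 1 (adjusted p = 0.0510) or without cTnT+ replicate 2 (adjusted p = 0.0596). Hox genes, which pattern the body axis, mostly did not pass the test: 3 of 32 rose and 2 fell, with a median of -0.28. The risers numbered 1 without Flk1+Pdgfra+ replicate 1, Flk1+Pdgfra+ replicate 2 or cTnT+ replicate 3, and the fallers 0 without Flk1+Pdgfra+ replicate 2, 1 without cTnT+ replicate 1, 4 without Flk1+ replicate 2 and 5 without Flk1+ replicate 3. Hoxb4 was the member with the largest rise and was 3.94-fold higher in cTnT+ (difference 1.98, SE 0.26, adjusted p = 5.25e-04). The counts under the 3 scalings were 2 higher and 8 lower, 2 higher and 15 lower and 2 higher and 11 lower.

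Energy metabolism changed enzyme by enzyme, with most glycolysis genes higher and most respiratory chain genes not past the test. In the glycolysis list, 15 of 19 members rose and 0 fell, with a median of 1.23, and the fallers numbered 1 without cTnT+ replicate 1. Hk1, which traps glucose in the cell, stood at 11.40, 10.88 and 10.55 in cTnT+ cells, against 8.06, 7.89 and 8.14 in Flk1+Pdgfra+ cells, and was 7.52-fold higher in cTnT+ (difference 2.91, SE 0.20, adjusted p = 2.55e-05). Aldoc and Eno2, isoforms of aldolase and enolase best known from brain, were 11.8-fold higher in cTnT+ (difference 3.57, SE 0.29, adjusted p = 4.86e-05) and 9.81-fold higher in cTnT+ (difference 3.29, SE 0.30, adjusted p = 8.11e-05). The glucose transporter of muscle and fat, Slc2a4, differed by 1.97 and the more widespread Slc2a3 by 2.23, both picked after their values were seen. In the creatine, myoglobin and energy buffering list, 14 of 21 rose and 1 fell, with a median of 1.29. Its faller was Ckmt1, and the fallers numbered 0 without Flk1+Pdgfra+ replicate 3, cTnT+ replicate 2 or cTnT+ replicate 3. Pgam2, the muscle phosphoglycerate mutase, was 24.6-fold higher in cTnT+ (difference 4.62, SE 0.46, adjusted p = 1.27e-04), and Pygm, the muscle glycogen phosphorylase, was 17.2-fold higher in cTnT+ (difference 4.10, SE 0.30, adjusted p = 2.89e-05). The muscle creatine kinase Ckm was not past the threshold, with means of 7.21 in cTnT+ and 7.02 in Flk1+Pdgfra+ cells (adjusted p = 0.363), and was picked after its values were seen.

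In the fatty acid list, 19 of 34 members rose and 3 fell, with a median of 0.48 that stayed above 0 under the 3 scalings (0.37, 0.15 and 0.38). The counts under these scalings were 16 higher and 4 lower, 15 higher and 7 lower and 17 higher and 5 lower. Ppargc1a, the coactivator PGC-1 alpha that drives mitochondrial growth, stood at 10.18, 9.76 and 10.00 in cTnT+ cells, against 4.55, 4.78 and 4.63 in Flk1+Pdgfra+ cells, where all values were among the dim genes. Lpl, the lipase that frees fatty acids at the cell surface, was at 10.43, 10.60 and 10.88 in cTnT+ cells, against 6.50, 6.57 and 5.85 in Flk1+Pdgfra+ cells, and was 20.2-fold higher in cTnT+ (difference 4.33, SE 0.20, adjusted p = 5.78e-06). Fabp3, the heart fatty acid binding protein, was 9.81-fold higher in cTnT+ (difference 3.29, SE 0.55, adjusted p = 0.00174). Pparg, the adipocyte receptor, was 3.04-fold lower in cTnT+ (difference -1.60, SE 0.39, adjusted p = 0.0116). Oxidative phosphorylation subunits, which this coactivator is known to drive, mostly did not pass the test. Of 53 measured subunits, 5 rose and 13 fell, with a median of -0.07, and the fallers numbered 7 without Flk1+Pdgfra+ replicate 2 and 8 without Flk1+Pdgfra+ replicate 1 or cTnT+ replicate 3. Under the 3 scalings the counts were 4 higher and 13 lower, 3 higher and 24 lower and 5 higher and 14 lower. The 2 risers with the largest changes, Cox6a2 and Cox8b, are the isoforms of striated muscle. Cox6a2 stood at 10.90, 10.01 and 9.79 in cTnT+ cells, against 7.42, 7.70 and 7.70 in Flk1+Pdgfra+ cells, and was 6.18-fold higher in cTnT+ (difference 2.63, SE 0.25, adjusted p = 1.12e-04), and Cox8b was 2.60-fold higher in cTnT+ (difference 1.38, SE 0.21, adjusted p = 0.00100).

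The pyruvate oxidation and tricarboxylic acid cycle list had 5 of 26 members higher, 7 lower and a median of -0.09, and the 3 scalings gave 5 higher and 9 lower, 4 higher and 14 lower and 5 higher and 10 lower. The higher members were regulators rather than cycle enzymes in 4 of 5 cases. All 4 pyruvate dehydrogenase kinases, which switch off the entry of pyruvate into the cycle, rose. Pdk1 stood at 10.97, 10.93 and 10.16 in cTnT+ cells, against 6.38, 6.61 and 6.05 in Flk1+Pdgfra+ cells, and was 20.2-fold higher in cTnT+ (difference 4.34, SE 0.31, adjusted p = 2.86e-05). Pdk2 was 7.11-fold higher in cTnT+ (difference 2.83, SE 0.16, adjusted p = 1.15e-05), and Pdk4 was 5.92-fold higher in cTnT+ (difference 2.57, SE 0.22, adjusted p = 6.52e-05). Pdk3 differed by 0.69 (adjusted p = 0.0342), a call that was lost without Flk1+Pdgfra+ replicate 1 (adjusted p = 0.0940), without Flk1+Pdgfra+ replicate 2 (adjusted p = 0.105), without cTnT+ replicate 1 (adjusted p = 0.103) or without cTnT+ replicate 2 (adjusted p = 0.0839), and the mitochondrial isocitrate dehydrogenase Idh2 by 1.39, both picked after their values were seen. Pdhx, a structural part of pyruvate dehydrogenase, was 1.72-fold lower in cTnT+ (difference -0.78, SE 0.09, adjusted p = 2.83e-04), and the fumarase Fh1 was 1.46-fold lower in cTnT+ (difference -0.55, SE 0.11, adjusted p = 0.00363).

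**Figure D3:**
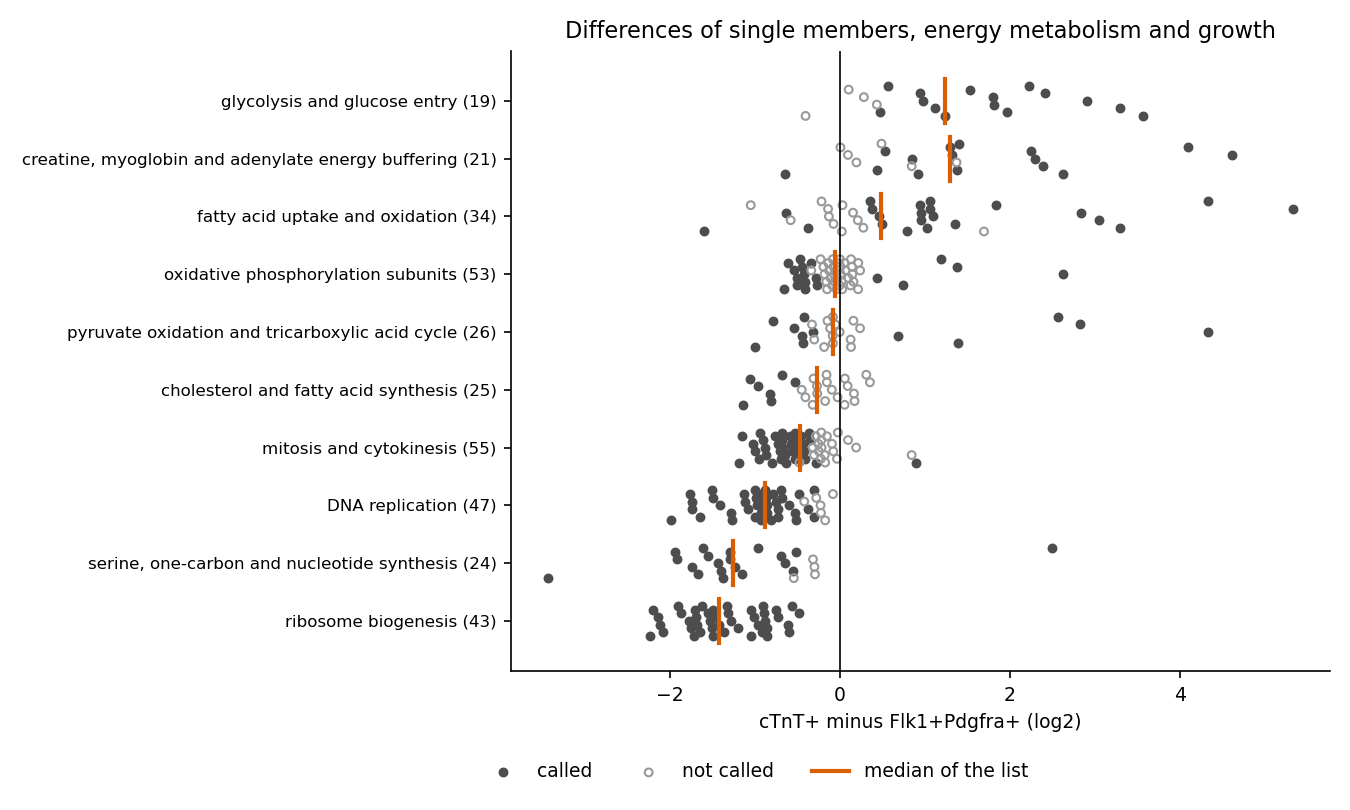
Difference between cTnT+ and Flk1+Pdgfra+ means (x axis, log2 scale) of each measured member of 10 lists on metabolism and growth, filled where the gene was called, open where it was not, with the list median as an orange line. Glycolysis and energy buffering medians lie above 0, the oxidative phosphorylation median lies at -0.07, and all 43 ribosome biogenesis members lie below 0.

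Genes of ribosome biogenesis and of serine, one-carbon and nucleotide synthesis fell, while most cholesterol synthesis genes did not pass the test. In the ribosome biogenesis list, 43 of 43 measured members fell and 0 rose, with a median of -1.42. Heatr1, a factor of early ribosomal RNA processing, stood at 8.40, 8.34 and 8.58 in cTnT+ cells, against 10.71, 10.72 and 10.60 in Flk1+Pdgfra+ cells, and was 4.71-fold lower in cTnT+ (difference -2.23, SE 0.10, adjusted p = 5.15e-06). Ddx21, a nucleolar helicase, was 4.40-fold lower in cTnT+ (difference -2.14, SE 0.14, adjusted p = 1.66e-05), and Taf1d, a subunit of the RNA polymerase I initiation factor, was 4.61-fold lower in cTnT+ (difference -2.20, SE 0.09, adjusted p = 4.84e-06). The polymerase I subunits Polr1a and Polr1b differed by -1.29 and -1.91 and were picked after their values were seen. Myc, the factor known to drive these genes, stood at 8.15, 9.79 and 8.85 in cTnT+ cells, against 12.14, 12.18 and 11.67 in Flk1+Pdgfra+ cells, and was 8.38-fold lower in cTnT+ (difference -3.07, SE 0.36, adjusted p = 2.71e-04). Mycl was 10.7-fold lower in cTnT+ (difference -3.42, SE 0.27, adjusted p = 4.36e-05). Cytosolic ribosomal proteins themselves moved less, with 7 of 18 measured members lower, 1 higher and a median of -0.50 (under the 3 scalings, 1 higher and 9 lower, 1 higher and 11 lower and 1 higher and 8 lower). These genes have many near-identical pseudogenes, so their probes may read more than 1 locus. In the serine, one-carbon and nucleotide list, 19 of 24 fell and 1 rose, with a median of -1.27. Gldc, the glycine cleavage enzyme, was 10.8-fold lower in cTnT+ (difference -3.44, SE 0.25, adjusted p = 2.79e-05). Tyms, which makes thymidylate, was 3.86-fold lower in cTnT+ (difference -1.95, SE 0.21, adjusted p = 1.79e-04), and Mthfd1, a folate enzyme, was 3.80-fold lower in cTnT+ (difference -1.93, SE 0.08, adjusted p = 4.97e-06). The riser was Aldh1l2, a mitochondrial folate enzyme, which was 5.65-fold higher in cTnT+ (difference 2.50, SE 0.35, adjusted p = 7.33e-04). In the cholesterol and fatty acid synthesis list, 7 of 25 fell and 0 rose, with Hsd17b7 2.20-fold lower in cTnT+ (difference -1.14, SE 0.21, adjusted p = 0.00283). The 3 scalings gave 0 higher and 8 lower, 0 higher and 12 lower and 0 higher and 8 lower.

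Replication and mitosis genes fell as well. Of the DNA replication list, 41 of 47 members fell and 0 rose, with a median of -0.88. Orc1, the origin recognition subunit that is made anew each cycle, stood at 7.95, 8.93 and 7.89 in cTnT+ cells, against 10.11, 10.22 and 10.41 in Flk1+Pdgfra+ cells, and was 3.97-fold lower in cTnT+ (difference -1.99, SE 0.25, adjusted p = 4.12e-04). Cdc6, which loads the replicative helicase, was 3.36-fold lower in cTnT+ (difference -1.75, SE 0.17, adjusted p = 1.11e-04), and Pole, the leading-strand polymerase, was 3.41-fold lower in cTnT+ (difference -1.77, SE 0.12, adjusted p = 2.37e-05). Of the mitosis list, 34 of 55 fell and 1 rose, with a median of -0.48. Kif15, a spindle motor, was 2.23-fold lower in cTnT+ (difference -1.16, SE 0.11, adjusted p = 1.13e-04), and Mybl2, a factor that turns on late cell cycle genes, was 2.28-fold lower in cTnT+ (difference -1.19, SE 0.21, adjusted p = 0.00244). The riser was the phosphatase Cdc25b, at 9.14, 8.43 and 8.60 in cTnT+ cells, against 7.73, 7.80 and 7.95 in Flk1+Pdgfra+ cells, a call that was lost after centring on the genes with a single symbol (adjusted p = 0.0778) and after quantile normalisation (adjusted p = 0.0831). The proliferation marker Mki67 was not past the threshold, with means of 8.95 in cTnT+ and 9.17 in Flk1+Pdgfra+ cells (difference -0.23, adjusted p = 0.339), nor was cyclin Ccnb2 (difference 0.09, adjusted p = 0.580). Both were picked after their values were seen. The G1 list split, with 10 of 36 higher and 13 lower. It is not made of cyclins, kinases and inhibitors alone, since its largest faller was Mycl (-3.42), given above. Its risers included the inhibitors Cdkn2c, 4.11-fold higher in cTnT+ (difference 2.04, SE 0.13, adjusted p = 1.97e-05), and Cdkn1c, 3.35-fold higher in cTnT+ (difference 1.74, SE 0.30, adjusted p = 0.00199), and its fallers included cyclin Ccne1, 3.66-fold lower in cTnT+ (difference -1.87, SE 0.08, adjusted p = 4.97e-06).

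The start windows of replication and mitotic genes are printed because each class holds a motif more often than other genes do. An E2F motif (TTTCCCGC, TTTCGCGC, TTTGCCGC or TTTGGCGC) was found on either strand in 16 of 45 DNA replication windows (35.6%), against 473 of 14927 windows of all genes (3.17%). The CHR motif (TTTGAA) was found in 35 of 54 mitosis windows (64.8%), against 14.3% of all windows. A CCAAT box was found in 70.4% of mitosis windows and 57.8% of replication windows, against 37.6% of all windows. The Orc1 window lies at chr4:108579204-108579503 on the plus strand, with CCAAT boxes 120 and 66 bases and an E2F motif 27 bases before the start. The Kif15 window lies at chr9:122950831-122951130 on the plus strand, with an E2F motif 27 bases before the start that runs into a CHR motif 19 bases before it, and a second CHR motif 234 bases before it. Capitals mark these motifs, 5′ to 3′ along the gene.
Orc1: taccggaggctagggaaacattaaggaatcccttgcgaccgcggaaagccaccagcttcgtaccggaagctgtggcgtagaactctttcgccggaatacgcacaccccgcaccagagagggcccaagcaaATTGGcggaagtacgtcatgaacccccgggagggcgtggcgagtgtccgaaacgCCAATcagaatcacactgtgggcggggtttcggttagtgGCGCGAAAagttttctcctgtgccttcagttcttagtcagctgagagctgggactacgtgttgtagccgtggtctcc
Kif15: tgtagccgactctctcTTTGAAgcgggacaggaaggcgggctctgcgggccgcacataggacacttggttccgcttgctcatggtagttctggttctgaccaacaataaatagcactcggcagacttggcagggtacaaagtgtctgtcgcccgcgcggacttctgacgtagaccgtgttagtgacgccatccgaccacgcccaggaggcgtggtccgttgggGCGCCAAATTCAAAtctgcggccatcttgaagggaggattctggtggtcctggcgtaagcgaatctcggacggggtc
Over all genes, 35.8% of the 447 genes with an E2F motif in a window fell and 20.4% rose, against 18.4% and 22.6% of the 11447 genes without it. Inside the replication list, 15 of the 16 genes with it fell, and so did 19 of the 22 without it. Inside the mitosis list, 58.1% of the 31 genes with a CHR motif fell, against 62.5% of the 16 without it.

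**Figure D4:**
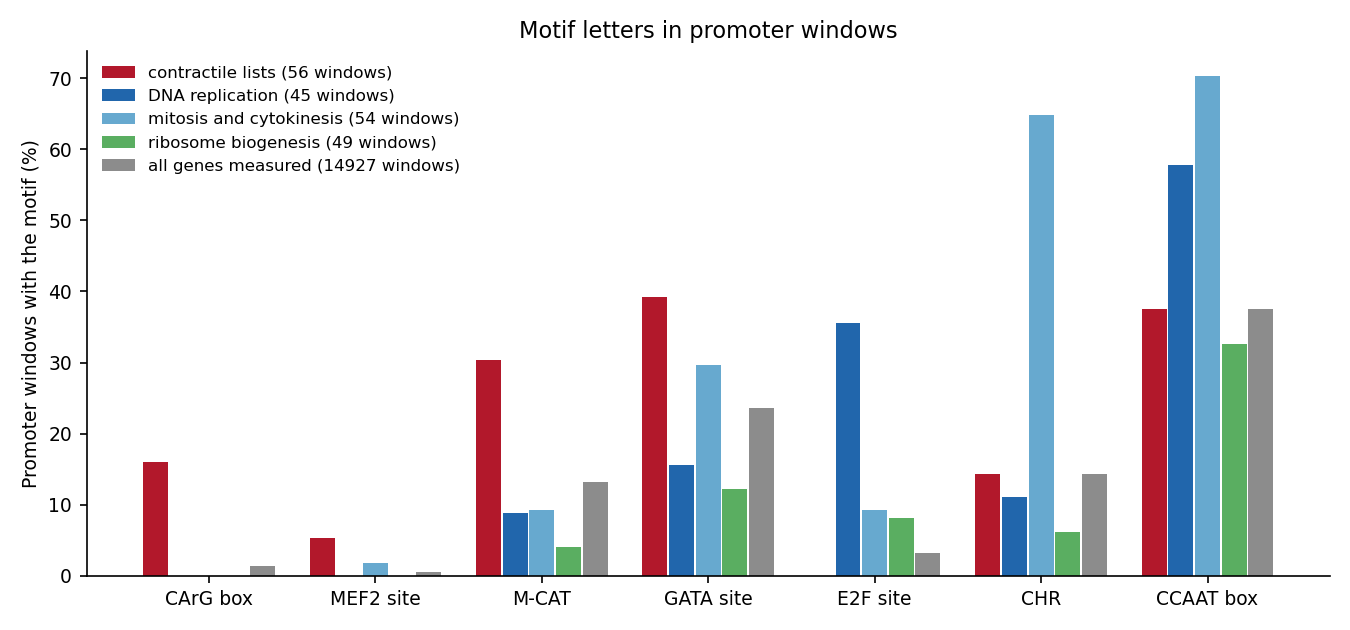
Percent of start windows (y axis) that hold each of 7 motifs in the contractile lists (56 windows), DNA replication (45), mitosis (54), ribosome biogenesis (49) and all genes (14927). CArG, MEF2, M-CAT and GATA motifs stand highest in contractile windows, E2F in replication windows, and CHR and CCAAT in mitosis windows.

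Signalling genes mostly changed ligand by ligand. In the Wnt list, 12 of 58 members rose and 14 fell, with a median of -0.13, and the 3 scalings gave 8 higher and 15 lower, 8 higher and 30 lower and 9 higher and 23 lower. Dkk3 and Sfrp1 were among the risers. Dkk3 was 7.19-fold higher in cTnT+ (difference 2.85, SE 0.26, adjusted p = 9.08e-05), and Sfrp1, a secreted Frizzled-related protein, was 10.3-fold higher in cTnT+ (difference 3.36, SE 0.78, adjusted p = 0.00903), the difference being 3.97 without cTnT+ replicate 2. Targets of beta-catenin were among the fallers. Axin2 stood at 8.32, 8.47 and 7.75 in cTnT+ cells, against 10.50, 10.53 and 10.71 in Flk1+Pdgfra+ cells, and was 5.27-fold lower in cTnT+ (difference -2.40, SE 0.45, adjusted p = 0.00315), and Sp5 was 5.90-fold lower in cTnT+ (difference -2.56, SE 0.48, adjusted p = 0.00319). The target Lgr5 differed by -2.34 and the receptor Fzd10 by -1.88, while the ligand Wnt2 differed by 1.57, all 3 picked after their values were seen. In the BMP, TGF-beta and Nodal list, 19 of 60 rose and 7 fell, with a median of 0.15, and the 3 scalings gave 18 higher and 10 lower, 13 higher and 17 lower and 18 higher and 13 lower. Id2, a target of BMP, was 10.0-fold higher in cTnT+ (difference 3.33, SE 0.58, adjusted p = 0.00210), and Smad9, a BMP signal transducer, was 6.84-fold higher in cTnT+ (difference 2.77, SE 0.30, adjusted p = 1.73e-04). Fst, the activin-binding follistatin, stood at 7.36, 7.11 and 7.84 in cTnT+ cells, against 10.97, 10.93 and 12.24 in Flk1+Pdgfra+ cells, and was 15.4-fold lower in cTnT+ (difference -3.95, SE 0.95, adjusted p = 0.0102). The Nodal antagonist Lefty1 was 5.85-fold lower in cTnT+ (difference -2.55, SE 0.66, adjusted p = 0.0148), the difference being -1.73 without Flk1+Pdgfra+ replicate 3, and Nodal itself differed by -1.80, picked after its values were seen. Bmp4, also picked after its values were seen, differed by 0.15 (adjusted p = 0.784).

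FGF genes and their feedback inhibitors had 5 of 39 members higher and 7 lower, with risers numbering 3 without cTnT+ replicate 2 and fallers 12 without cTnT+ replicate 2. The 3 scalings gave 4 higher and 9 lower, 2 higher and 16 lower and 4 higher and 10 lower. Fgf3, an early mesoderm ligand, was 7.16-fold lower in cTnT+ (difference -2.84, SE 0.34, adjusted p = 3.07e-04). Fgfr3 was 4.80-fold higher in cTnT+ (difference 2.26, SE 0.21, adjusted p = 9.59e-05), and Flrt2, a membrane protein that binds FGF receptors, was 5.27-fold higher in cTnT+ (difference 2.40, SE 0.32, adjusted p = 5.46e-04). In the Notch list 4 of 25 rose and 7 fell. Dll3 was 6.93-fold lower in cTnT+ (difference -2.79, SE 0.52, adjusted p = 0.00283), the difference being -2.17 without Flk1+Pdgfra+ replicate 3, and the target Hes1 stood at 8.40, 9.17 and 8.86 in cTnT+ cells, against 10.94, 10.99 and 10.88 in Flk1+Pdgfra+ cells, and was 4.38-fold lower in cTnT+ (difference -2.13, SE 0.17, adjusted p = 4.94e-05). The ligand Jag2 was 2.97-fold higher in cTnT+ (difference 1.57, SE 0.29, adjusted p = 0.00274), and Mfng, a glycosyltransferase that tunes Notch receptors, was 3.93-fold higher in cTnT+ (difference 1.97, SE 0.43, adjusted p = 0.00671). The list of VEGF, PDGF, Kit, chemokine, insulin-like and endothelin ligands and receptors leaned upward, with 17 of 34 higher, 3 lower and a median of 1.17. Its fallers numbered 5 without Flk1+ replicate 3, and the 3 scalings gave 17 higher and 4 lower, 17 higher and 6 lower and 17 higher and 4 lower. A ligand and its receptor went opposite ways here: the chemokine Cxcl12 stood at 9.17, 9.80 and 9.90 in cTnT+ cells, against 6.48, 6.34 and 6.56 in Flk1+Pdgfra+ cells, and was 8.99-fold higher in cTnT+ (difference 3.17, SE 0.32, adjusted p = 1.27e-04). Its receptor Cxcr4 stood at 6.67, 7.32 and 7.41 in cTnT+ cells, against 10.72, 10.76 and 10.82 in Flk1+Pdgfra+ cells, and was 12.4-fold lower in cTnT+ (difference -3.63, SE 0.22, adjusted p = 1.63e-05). Ednrb, an endothelin receptor, was 20.2-fold higher in cTnT+ (difference 4.33, SE 0.30, adjusted p = 2.46e-05). Vegfa and Igf2, picked after their values were seen, differed by 1.24 and 1.61.

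Most elastic fibre and matricellular genes rose, as did fewer of the collagens, several of them unevenly between the cTnT+ arrays. Marker lists of fibroblasts and epicardium, given below, were also higher in cTnT+ cells. The fibroblast list shares at least Postn with the matricellular list, so their counts are not independent. Of the elastic fibre and matricellular list, 26 of 42 rose and 0 fell (1 at an unadjusted p under 0.05), with a median of 1.22, the fallers numbering 1 without Flk1+ replicate 3. Loxl2, which cross-links collagen and elastin, stood at 11.21, 11.51 and 11.60 in cTnT+ cells, against 7.06, 7.17 and 6.56 in Flk1+Pdgfra+ cells, and was 22.8-fold higher in cTnT+ (difference 4.51, SE 0.22, adjusted p = 7.62e-06). Thbs4, a thrombospondin of heart and tendon, was 15.5-fold higher in cTnT+ (difference 3.95, SE 0.27, adjusted p = 2.53e-05). Postn, the periostin of cushions and fibroblasts, was at 9.44, 7.43 and 11.72 in cTnT+ cells, against 4.85, 5.01 and 5.11 in Flk1+Pdgfra+ cells, with a difference of 4.54, or of 5.59 without cTnT+ replicate 2 and 3.45 without cTnT+ replicate 3. Of the collagens, 17 of 39 rose and 2 fell, with a median of 0.35 that became 0.24, 0.02 and 0.09 under the 3 scalings, where the counts were 15 higher and 2 lower, 13 higher and 8 lower and 15 higher and 6 lower. The fallers numbered 1 without Flk1+Pdgfra+ replicate 1, Flk1+Pdgfra+ replicate 2, Flk1+Pdgfra+ replicate 3, Flk1+ replicate 2 or cTnT+ replicate 1. Col6a1 stood at 10.32, 10.96 and 11.58 in cTnT+ cells, against 6.99, 7.18 and 7.31 in Flk1+Pdgfra+ cells, and was 13.9-fold higher in cTnT+ (difference 3.79, SE 0.32, adjusted p = 6.16e-05), with cTnT+ replicate 3 the highest. Col12a1 was 13.7-fold higher in cTnT+ (difference 3.78, SE 0.38, adjusted p = 1.25e-04), and Col18a1, a basement membrane collagen, was 7.55-fold higher in cTnT+ (difference 2.92, SE 0.26, adjusted p = 7.92e-05). The proteoglycan Vcan and the glycoprotein Tnc, picked after their values were seen, differed by 1.81 and 2.98.

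RNA-binding and chromatin genes changed in both directions. Of the muscle splicing list, 6 of 20 rose and 6 fell, or 30% each, beside 22.5% and 18.7% over all genes. Mbnl1, a splicing factor that promotes adult isoforms, stood at 10.34, 10.16 and 11.02 in cTnT+ cells, against 7.75, 7.83 and 7.11 in Flk1+Pdgfra+ cells, and was 7.70-fold higher in cTnT+ (difference 2.95, SE 0.29, adjusted p = 1.28e-04), and Mbnl2 was 3.04-fold higher in cTnT+ (difference 1.60, SE 0.13, adjusted p = 4.62e-05). Esrp1, an epithelial splicing factor, was lower in cTnT+ (difference -3.05, SE 0.80, adjusted p = 0.0155), and the general factor Srsf3 was 2.84-fold lower in cTnT+ (difference -1.51, SE 0.12, adjusted p = 5.11e-05). Under the 3 scalings the counts of this list were 5 higher and 6 lower, 2 higher and 9 lower and 5 higher and 7 lower. Of the chromatin list, 13 of 45 rose and 16 fell (28.9% and 35.6%), with a median of -0.13. The 3 scalings gave 11 higher and 18 lower, 9 higher and 23 lower and 10 higher and 20 lower, so the balance depends on the scaling. Paralogs stood on opposite sides: Dnmt3a against Dnmt3b as above, and the Polycomb methyltransferases Ezh1 and Ezh2, which differed by 1.33 and -0.45 (adjusted p = 6.14e-04 and 0.00429, picked after their values were seen). Hdac9, a class II deacetylase that binds MEF2, was 16.6-fold higher in cTnT+ (difference 4.05, SE 0.60, adjusted p = 8.95e-04), the difference being 4.66 without cTnT+ replicate 3. Tet2, which oxidises methylcytosine, was 5.51-fold higher in cTnT+ (difference 2.46, SE 0.18, adjusted p = 2.77e-05). Eed, a Polycomb core subunit, was 2.07-fold lower in cTnT+ (difference -1.05, SE 0.07, adjusted p = 2.35e-05), and Pcgf6, which acts in pluripotent cells, was 3.04-fold lower in cTnT+ (difference -1.60, SE 0.07, adjusted p = 5.55e-06). The Zfp zinc finger genes, 208 in number, had 61 higher and 38 lower, and the 3 scalings gave 51 higher and 50 lower, 28 higher and 71 lower and 42 higher and 60 lower, so that their direction follows the scaling. Zfp462 was 12.5-fold higher in cTnT+ (difference 3.64, SE 0.17, adjusted p = 6.39e-06).

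Markers of other cell types moved with the comparison as well. Endothelial markers had 14 of 21 members higher and 0 lower in cTnT+, with a median difference of 1.78. This list did not hold Kdr or Etv2, which both fell as given above, and it was written with earlier results known. Their median level was 9.04, 9.85 and 8.95 on the cTnT+ arrays, against 8.12, 8.15 and 6.69 on the Flk1+Pdgfra+ arrays, and 11.30, 11.32 and 10.07 on the Flk1+ arrays. Emcn, an endothelial sialomucin, stood at 10.80, 11.36 and 11.39 in cTnT+ cells, against 6.37, 6.58 and 4.94 in Flk1+Pdgfra+ cells, and was 37.2-fold higher in cTnT+ (difference 5.22, SE 0.67, adjusted p = 4.41e-04). It was 9.13, 10.00 and 7.35 in Flk1+ cells. Without Flk1+Pdgfra+ replicate 3, the lowest of its group, 12 endothelial markers were higher and 0 lower, with a median difference of 1.62. The junction protein Pecam1 was 9.86-fold higher in cTnT+ (difference 3.30, SE 0.59, adjusted p = 0.00236), the difference being 2.59 without Flk1+Pdgfra+ replicate 3. Blood markers had 10 of 18 higher and 2 lower, with median levels of 8.13, 8.19 and 8.11 on the cTnT+ arrays, against 6.92, 7.16 and 6.72 on the Flk1+Pdgfra+ arrays. The embryonic globin Hba-x and the red cell factor Gata1 (difference 1.83, picked after its values were seen) were higher, and the blood stem cell factor Runx1 was 3.03-fold lower in cTnT+ (difference -1.60, SE 0.37, adjusted p = 0.00855). The pan-leukocyte marker Ptprc stayed dim, with means of 4.89 in cTnT+ and 4.43 in Flk1+Pdgfra+ cells (adjusted p = 0.251).

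Stromal lists rose too. Smooth muscle markers had 9 of 16 higher and 1 lower, the fallers numbering 2 without cTnT+ replicate 2, and their median level was 9.29, 10.14 and 9.83 on the cTnT+ arrays, against 7.60, 7.75 and 8.27 on the Flk1+Pdgfra+ arrays. The smooth muscle myosin Myh11, a defining marker, stayed below the array medians, which lay between 7.26 and 7.53, with means of 6.46 in cTnT+ and 6.33 in Flk1+Pdgfra+ cells (adjusted p = 0.474). Fibroblast markers had 11 of 19 higher and 0 lower, the fallers numbering 1 without cTnT+ replicate 2. Their median level was 8.89, 9.40 and 10.39 on the cTnT+ arrays, against 7.42, 7.65 and 7.60 on the Flk1+Pdgfra+ arrays. Epicardial and mesothelial markers had 7 of 14 higher and 0 lower (1 at an unadjusted p under 0.05), the fallers numbering 1 without cTnT+ replicate 3, with median levels of 9.23, 7.68 and 10.06 on the cTnT+ arrays, against 6.44, 6.59 and 6.67 on the Flk1+Pdgfra+ arrays. Tcf21, a factor of epicardium and fibroblasts, stood at 8.89, 9.94 and 10.61 in cTnT+ cells, against 5.82, 6.20 and 5.96 in Flk1+Pdgfra+ cells, and was 14.2-fold higher in cTnT+ (difference 3.82, SE 0.38, adjusted p = 1.19e-04). The mesothelial gene Upk1b was 33.7-fold higher in cTnT+ (difference 5.07, SE 0.54, adjusted p = 1.74e-04), the difference being 5.84 without cTnT+ replicate 2. The order of the 3 cTnT+ arrays differed between lists. Replicate 3 was highest on the fibroblast and epicardial lists, but replicate 2 on the smooth muscle list. Replicate 1 was highest on the thick filament, thin filament and Z-disc lists. The part of these other cell types in the differences of matrix, signalling and metabolic genes was not tested.

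Most markers of endoderm, nerve, skeletal muscle and epithelium did not pass the test. Endoderm markers had 1 of 15 higher and 3 lower (risers numbering 0 without Flk1+Pdgfra+ replicate 1, Flk1+Pdgfra+ replicate 2, Flk1+Pdgfra+ replicate 3, Flk1+ replicate 1 or cTnT+ replicate 3, and fallers 5 without Flk1+ replicate 3), with median levels of 6.95, 7.09 and 6.62 on the cTnT+ arrays, against 7.02, 7.15 and 7.62 on the Flk1+Pdgfra+ arrays. Albumin, Alb, stayed dim in both groups, with means of 5.12 in cTnT+ and 5.16 in Flk1+Pdgfra+ cells. Neural markers had 2 of 17 higher and 1 lower (risers numbering 1 without Flk1+Pdgfra+ replicate 1, Flk1+Pdgfra+ replicate 2, Flk1+ replicate 2, cTnT+ replicate 2 or cTnT+ replicate 3, and fallers 0 without Flk1+Pdgfra+ replicate 1, Flk1+Pdgfra+ replicate 2 or cTnT+ replicate 3 and 5 without Flk1+ replicate 3). Skeletal muscle markers had 4 of 18 higher and 1 lower (risers numbering 1 without Flk1+Pdgfra+ replicate 1 or Flk1+Pdgfra+ replicate 2 and 2 without Flk1+Pdgfra+ replicate 3, Flk1+ replicate 2 or cTnT+ replicate 1, and fallers 2 without Flk1+ replicate 1 and 3 without Flk1+ replicate 3). The myogenic factor Myog stayed below the array medians, with means of 6.52 in cTnT+ and 6.59 in Flk1+Pdgfra+ cells (adjusted p = 0.808). Myh11, Ptprc, Alb and Myog were chosen as defining markers after their values were seen. Epithelial markers had 2 of 17 higher and 4 lower, the fallers numbering 1 without Flk1+Pdgfra+ replicate 2, 2 without cTnT+ replicate 1 or cTnT+ replicate 3 and 10 without Flk1+ replicate 3. Stress and immediate early genes had 3 of 25 higher and 7 lower, the fallers numbering 4 without Flk1+Pdgfra+ replicate 3 or cTnT+ replicate 3. Under the 3 scalings, the counts were 1 higher and 4 lower, 0 higher and 6 lower and 0 higher and 4 lower for endoderm, 2 higher and 2 lower, 2 higher and 8 lower and 2 higher and 5 lower for neural, 2 higher and 2 lower, 2 higher and 6 lower and 2 higher and 3 lower for skeletal muscle, 2 higher and 5 lower, 2 higher and 10 lower and 2 higher and 6 lower for epithelial and 3 higher and 9 lower, 3 higher and 14 lower and 3 higher and 11 lower for stress genes. Fos was 7.48-fold lower in cTnT+ (difference -2.90, SE 0.68, adjusted p = 0.00933), and Hsph1, a heat shock protein, was 5.66-fold lower in cTnT+ (difference -2.50, SE 0.19, adjusted p = 3.85e-05). Among genes commonly used as references, B2m, a part of MHC class I, was 2.70-fold higher in cTnT+ (difference 1.43, SE 0.18, adjusted p = 3.85e-04), and the polymerase subunit Polr2a was 1.77-fold lower in cTnT+ (difference -0.83, SE 0.13, adjusted p = 0.00104).

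**Figure D5:**
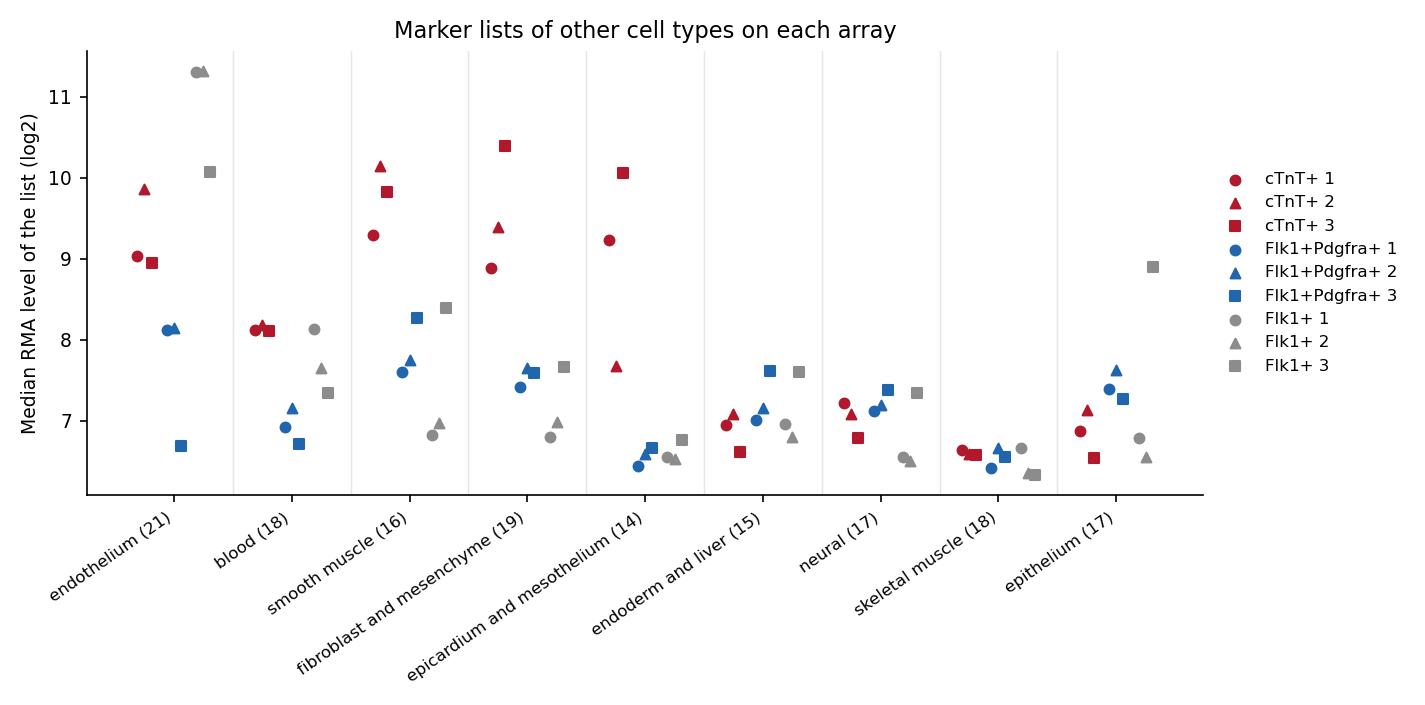
Median RMA level on the log2 scale (y axis) of 9 marker lists of other cell types on each array, with cTnT+, Flk1+Pdgfra+ and Flk1+ arrays from left to right. Endothelial, blood, smooth muscle, fibroblast and epicardial medians lie higher on all 3 cTnT+ arrays than on the Flk1+Pdgfra+ arrays, and neural and skeletal muscle medians overlap between these groups.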

How the data were processed

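Levels of the 3 groups were the authors' deposited log2 values, made per the labels by RMA over core genes in the TAC software; the submitters' processing notes also name R 3.3.1, and the array library version is not given in the sources used here. Of 23332 transcript clusters, 14996 carried exactly 1 symbol, updated by Entrez number to RefSeq GRCm38.p6 (14941 matched), and the brightest cluster of each gene was kept, which left 14860 genes. Differences were fitted with limma 3.58.1 in R 4.3.3 over all 9 arrays, 1 coefficient a group and no covariate, and adjusted by Benjamini-Hochberg over all genes. No filter on low values was applied. Of 2025 list entries in 45 lists, 1515 were measured. Members and lists were chosen with earlier results of these data known. Some genes stand in more than 1 list, so list counts are not independent of each other. Named genes are the given markers and sort genes, the 12 largest rises and falls with separate groups, and up to 3 risers and 3 fallers a list; the text gives those the results turn on, and says where others were picked later. Alternatives were other scalings, moderation, array weights, dim genes left out, every cluster tested, the replicate block and each array left out. Motifs were searched in RefSeq start windows. Promoters come from RefSeq GRCm38.p6. Fold changes are 2 to the power of a log2 difference.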

Additional observations from a re-analysis of the deposited data

Results flagged for a closer look

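The 8336 transcript clusters with no gene symbol or with several were left out of every comparison above. For this count all 23332 transcript clusters were fitted with the same model, and p was adjusted over all of them. Of the 8336, 631 were higher and 1273 lower in cTnT+ than in Flk1+Pdgfra+ cells, or 22.8% together. With a change of at least 2-fold, 180 of the 8336 were higher and 392 were lower. The 41.2% given above for genes with a single symbol was adjusted over 14860 genes, so these shares do not compare directly. These counts stand here because the clusters entered none of the comparisons.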

How the results depend on the processing

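Across 20 alternative settings no named difference that had passed the test was reversed, and 161 of the 195 named genes called kept their call whichever single array was left out. Leaving out each array in turn gave 2655 to 3603 genes higher and 2246 to 3004 lower, and with at least a 2-fold change 1444 to 1671 higher and 625 to 750 lower. The other listed settings gave 2737 to 3940 higher and 2772 to 3914 lower, and with 2-fold 1330 to 1774 higher and 708 to 1103 lower. The 1103 came from testing every transcript cluster, which adds those without a single symbol. Centring on the genes with 1 symbol, chosen after seeing the data, gave 1994 higher and 5406 lower, with 1526 at least 2-fold lower, through the shift of -0.33 that it subtracts. Of 1800 counts of list members under these settings, 1602 lay within 1.5 times of the main count.

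The replicate numbers are shared between groups, and the titles do not say whether a number pairs arrays. Deviations of same-numbered cTnT+ and Flk1+Pdgfra+ arrays from their group means correlated at 0.023, 0.036 and 0.046. Those of arrays with unlike numbers correlated at -0.080 to 0.065. With 3 arrays a group, such values cannot decide whether same-numbered arrays share a culture or batch. With the replicate block, 3395 genes were higher and 2772 lower, and 1628 and 724 at least 2-fold so, and 6 of the 195 named genes lost their call.

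Precision is limited by 3 arrays a group, with a median standard error of 0.134, and by dim signal: 203 genes called at least 2-fold had their lower mean below the array lower quartile, so those sizes are not exact.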

Other observations

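Gene families that share a symbol root also leaned one way. They were picked after their values were seen and carry no test of the family. Of the clustered protocadherins of the beta group (Pcdhb), adhesion molecules made from a tandem array of near-identical genes, 17 of 22 were higher in cTnT+ than in Flk1+Pdgfra+ cells and 0 lower, with a median difference of 1.11. The count was 14 to 18 when single arrays were left out, and Pcdhb18 led with 3.17. With the dimmest 25% of genes left out, 10 members remained and 9 of these were higher. Under the 3 scalings the counts were 15 higher and 0 lower, 13 higher and 1 lower and 16 higher and 0 lower. Probes of such close copies may read more than 1 gene. Of the Klhl genes, most of which are adaptors for cullin ubiquitin ligases, 14 of 21 were higher and 1 lower, with Klhl4 at 3.51, and 9 were higher after centring on the genes with 1 symbol.

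Families of general machinery leaned the other way. Of the nucleoporins (Nup), 15 of 17 were lower in cTnT+ and 0 higher, with a median of -0.67, and the count was 15 without each single array and under each of the 3 scalings. Of the RNA polymerase subunits (Polr), some of which are also counted in the ribosome biogenesis and reference gene lists, 16 of 22 were lower and 1 higher, and of the integrator subunits (Ints), which process small nuclear RNA, 11 of 14 were lower and 0 higher. Of the proteasome regulatory subunits (Psmd), 10 of 13 were lower and 0 higher. Mitochondrial ribosomal proteins of the large subunit (Mrpl) had 31 of 43 lower and 2 higher, with a median of -0.52, and 30 to 32 were lower when single arrays were left out. The higher members numbered 0 without cTnT+ replicate 2 and 1 without any other single array except Flk1+Pdgfra+ replicate 2. Those of the small subunit (Mrps) had 15 of 25 lower and 0 higher, and 9 to 17 lower when single arrays were left out. The count of 9 came without Flk1+Pdgfra+ replicate 2. Under the 3 scalings 15, 23 and 20 were lower and 0 higher.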
